A study of Homo sapiens with 2 samples.

Results

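Cholesterol synthesis in HCT116 cells, an established human colon cancer line, was followed through 8 genes: HMGCS1, IDI1, FDFT1, SQLE, LSS and DHCR7, which encode enzymes of the pathway, and INSIG1 and SREBF2, which encode parts of its sterol feedback. The genes were taken for their known role in the pathway, with earlier results of these data known. Their probes were found by the RefSeq transcript accession printed in the array files. All 8 had a probe, out of 21613 genes with a named probe, and all 8 were among the 11996 genes that could be compared. The 8 genes hold no uptake gene, so genes of uptake were taken from a separate list.

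The samples were 2 cultures of HCT116 cells, both carrying a pEB plasmid and both kept in blasticidin for 2 weeks. The mock transfected cells had the empty vector and are labelled control. The HOXA5 short RNA transfected cells overexpressed HOXA5 short, a non-coding transcript from the HOXA5 locus. GEO's treatment text for the mock cells also names the HOXA5 short plasmid, so the genotype label set the groups. The methods describe selected stable transfectants and do not say whether these were clones or pools, and growth was in medium with fetal bovine serum, which itself carries lipoprotein cholesterol.

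RNA of each culture was labelled with Cy3 and hybridised to 1 Agilent SurePrint G3 array, both on the same slide. With 1 array per group there was no replicate, no test and no p-value, and precision is limited by how few arrays there are. Signals are given as the processed signal of the scanner software, in arbitrary units, with the error that the software attaches to it. Differences are log2 signal on the HOXA5 short array minus log2 signal on the mock array, after each array was scaled to its 75th percentile over non-control probes, which was 35.6 for mock and 44.0 for HOXA5 short. Between 36.4% and 37.5% of 50599 probes were well above background, and 0 spots were saturated. The median difference of all genes was -0.02, with 5th and 95th percentiles of -0.39 and 0.45. Probes printed in many spots gave a standard deviation of 0.26 for the difference of a single spot (593 probes). That value holds measurement spread within a pair of arrays and no spread between cultures.

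The probe annotated to HOXA5 read 39.4 ± 4.32 (scanner error) in mock cells and 346 ± 34.6 in the cells labelled as overexpressing. This 7.11-fold excess (2.83 on the log2 scale) went with the labels, although whether the probe separates HOXA5 short RNA from HOXA5 mRNA was not tested. Of 8 markers of colon epithelium, 7 were well above background on both arrays, among them EPCAM, KRT8 and CDH1, while VIL1 was not. Of the hepatocyte markers 0 of 4 were well above background on either array. Of the fibroblast markers 1 of 5 (COL1A1) was above background on both arrays, and of the leukocyte markers 1 of 5 (CD68) on both, with CD14 added for HOXA5 short.

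Cells build cholesterol from acetyl-CoA. The mevalonate arm makes isoprenoid units and joins them to farnesyl pyrophosphate, squalene synthase and squalene epoxidase commit these to sterols, and a chain of later enzymes turns lanosterol into cholesterol. When sterols in the endoplasmic reticulum run low, SCAP escorts the transcription factor SREBP2 to the Golgi, where the proteases S1P and S2P release its active part. SREBP2 then binds sterol regulatory elements, usually beside a box for the factor NF-Y, and drives nearly every gene of the pathway, genes of cholesterol uptake and INSIG1. INSIG proteins hold SCAP back when sterols are plentiful. Levels of these mRNAs therefore tend to be read together as a measure of sterol demand.

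Promoter sequences are shown for 4 of the genes, because sterol feedback acts on the pathway through these short boxes. RefSeq (GRCh38.p14) gave 10 windows for 6 of the 8 genes, each from 250 bases before to 50 bases after a transcript start. SQLE and FDFT1 had no entry. Capitals mark a sterol regulatory element (TCACNCCAC) in SREBF2 and NF-Y boxes (CCAAT, here on the other strand and so written ATTGG) in all 4. The stretches lie at chr22:41832947-41833028 (plus strand) for SREBF2, chr5:43313483-43313592 (minus strand) for HMGCS1, chr21:46228895-46228949 (minus strand) for LSS and chr7:155297683-155297737 (plus strand) for INSIG1, and each is written 5′ to 3′ along its gene's strand.
SREBF2: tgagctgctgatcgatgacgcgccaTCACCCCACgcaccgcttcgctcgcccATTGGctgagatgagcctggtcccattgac
HMGCS1: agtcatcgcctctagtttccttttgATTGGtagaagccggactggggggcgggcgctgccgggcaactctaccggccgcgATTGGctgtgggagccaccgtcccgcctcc
LSS: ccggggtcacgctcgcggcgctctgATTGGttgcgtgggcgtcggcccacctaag
INSIG1: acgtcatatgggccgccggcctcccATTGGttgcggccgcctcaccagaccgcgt

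In SREBF2 the sterol element began 133 bases upstream of the start and the NF-Y box 106 bases upstream, without overlap. The NF-Y boxes of HMGCS1 began 155 and 100 bases upstream, that of LSS 150 and that of INSIG1 170. HMGCS1 had 2 windows and only 1 of them held an NF-Y box, so the stretch shown was picked for its match. Both strands were searched. The sterol element letters were in 1 of the 10 windows against 1.13% of 35116 windows of the same length, and CCAAT was in 7 of 10 against 34.6%. A match of letters is a description only, and a window without a match says nothing about the factor.

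Of the mevalonate arm, HMGCS1 encodes HMG-CoA synthase, which makes HMG-CoA, the precursor of mevalonate. Its probe read 134 ± 13.5 in mock cells and 166 ± 16.7 in HOXA5 short cells. After scaling the log2 difference was 0.0061, the smallest of the 8 in size, and only 2.56% of all genes differed less. IDI1, the isomerase that makes dimethylallyl pyrophosphate, read 139.8 ± 14.1 and 166 ± 16.7. Its difference was -0.05, with a scanner error of 0.21, so for both genes the arrays could not be told apart.

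The squalene steps were read with bright probes. FDFT1, squalene synthase, gave 1122 ± 112 in mock cells and 1356 ± 136 in HOXA5 short cells, a difference of -0.03 with a scanner error of 0.20. SQLE, squalene epoxidase and a slow step of the pathway, gave 309 ± 31.0 and 329 ± 33.0. Unscaled, the signal was 1.07 times as high on the brighter HOXA5 short array, and the scaled difference was -0.21, a 1.16-fold lower level. That was about the size of its scanner error of 0.20 and inside the spot spread of 0.26, and 16.8% of all genes had a lower difference.

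LSS, lanosterol synthase, closes squalene epoxide into the first sterol and had 2 probes. The probe for NM_002340 read 234 ± 23.5 and 295 ± 29.5, a difference of 0.03. The probe for NM_001001438 was near background, at 12.2 ± 2.17 and 14.3 ± 2.42, with a difference of -0.08 and a larger scanner error of 0.35. Their signs were opposite but both were well inside the error, and the mean for the gene was -0.03. DHCR7, the reductase of the last step to cholesterol, read 1865 ± 187 and 2233 ± 223, a difference of -0.04.

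**Figure D1:**
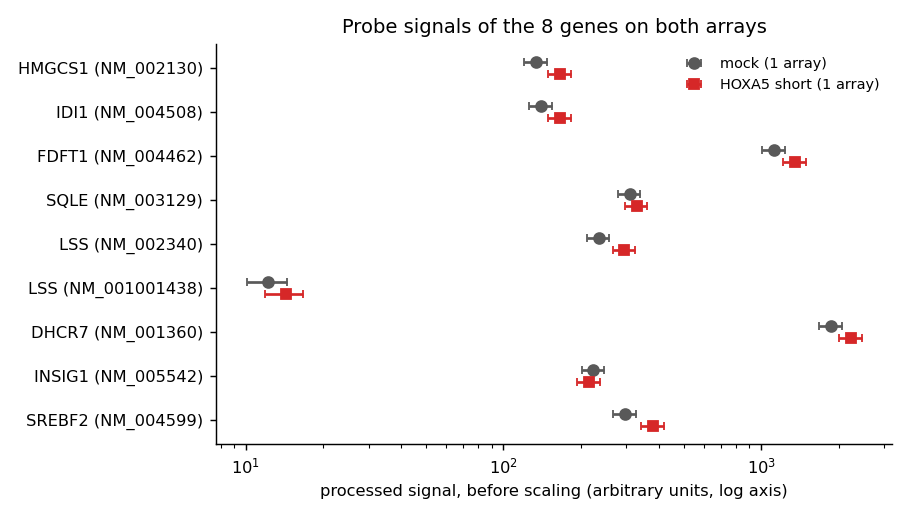
Processed signal (arbitrary units, log axis) of the 9 probes of the 8 genes on the mock array (circles) and the HOXA5 short array (squares), with bars for the scanner error. Before scaling, 8 of the 9 probes lay to the right on the HOXA5 short array, whose 75th percentile was also higher, and INSIG1 alone lay slightly to the left.

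The feedback genes differed from each other. INSIG1, which retains SCAP in the endoplasmic reticulum and is itself a target of SREBP2, read 223 ± 22.4 in mock cells and 215 ± 21.6 in HOXA5 short cells. It was the only one of the 8 whose unscaled signal was not higher on the brighter array, with a ratio of 0.964 where the others ran up to 1.28. The scaled difference was -0.36, a 1.28-fold lower level, against a scanner error of 0.20. It exceeded the spread of single spots, which was 0.24 for probes with a signal of at least 200, and 6.39% of all genes had a lower difference. With normexp background correction the difference shrank to -0.11, and with scaling to the RNA spike-ins it was 0.04. INSIG1 rested on 1 spot, and 0 of its 26 well-measured neighbouring spots differed 2-fold.

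SREBF2, which encodes SREBP2, read 296 ± 29.7 and 380 ± 38.1. The difference was 0.06, the highest of the 8, and it was inside the scanner error of 0.20. The regulator itself therefore differed by less than the measurement error between the cultures, while the feedback inhibitor that it drives had the lowest value of the 8.

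Across the 8 genes the median difference was -0.04, beside -0.02 for all genes compared. Values were below 0 for 6 of the 8, against 54.5% of all genes. In size, 6 of the 8 were under 0.1, as were 39.6% of all genes, and 7 of the 8 were within the spot spread of 0.26, as were 75.8%. None reached 2-fold in either direction (0 of 8), where the share of all genes was 0.642% higher and 0.258% lower. None reached 1.5-fold (0 of 8), where the share was 2.78% higher and 1.6% lower. With shares as low as these, 0 of 8 does not set the list apart from all genes. All 9 probes were well above background on both arrays, so no value was lost to the filter, and 0 lay in an uneven zone of the grid.

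**Figure D2:**
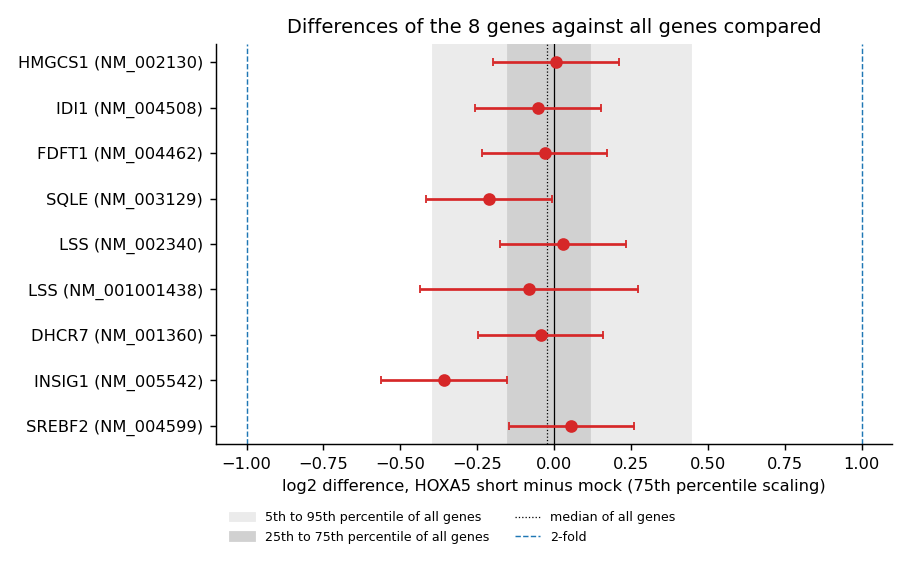
Log2 difference, HOXA5 short minus mock, of each probe of the 8 genes, with bars for the scanner error, over bands for the 25th to 75th and the 5th to 95th percentile of all genes compared. SQLE at -0.21 and INSIG1 at -0.36 lie left of the inner band (-0.15 to 0.12), the other 7 probes lie inside it, and none is near the dashed lines of 2-fold.

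Small shifts of this kind depend on what is taken as the zero. The 7 detected RNA spike-ins of the labelling kit had a median difference of -0.47 under the 75th percentile scaling, with a range from -0.66 to -0.04. Scaling to them shifted all genes by 0.40, and the 8 genes then had a median of 0.36 beside 0.37 for all genes. Relative to the median of all genes the 8 genes stood at -0.02 and INSIG1 at -0.34 under both scalings, as a shift common to all genes must give. Settings that can change these values gave 0.02 and -0.14 (normexp), 0.07 and -0.25 (no filter), and -0.11 and -0.36 (local mean subtracted). In the other 11 ways of processing the data, INSIG1 ran from -0.37 to -0.11 and SQLE from -0.23 to -0.11, below 0 in each. SREBF2 was above 0 in all 12, from 0.0074 to 0.45. Other filters, the brightest probe and leaving out uneven zones could not change these genes, each read by 1 spot. INSIG1 stayed at -0.36 and SQLE at -0.21 there, so signs in those settings add no evidence. The remaining 5 genes changed sign with the setting: even without the spike-in scaling, HMGCS1 ran from -0.12 to 0.10 and FDFT1 from -0.17 to 0.07. The low ends came from subtracting the local mean, which was 0.12 around the HMGCS1 spot and 0.14 around that of FDFT1. No gene of the 8 reached 2-fold in any setting.

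**Figure D3:**
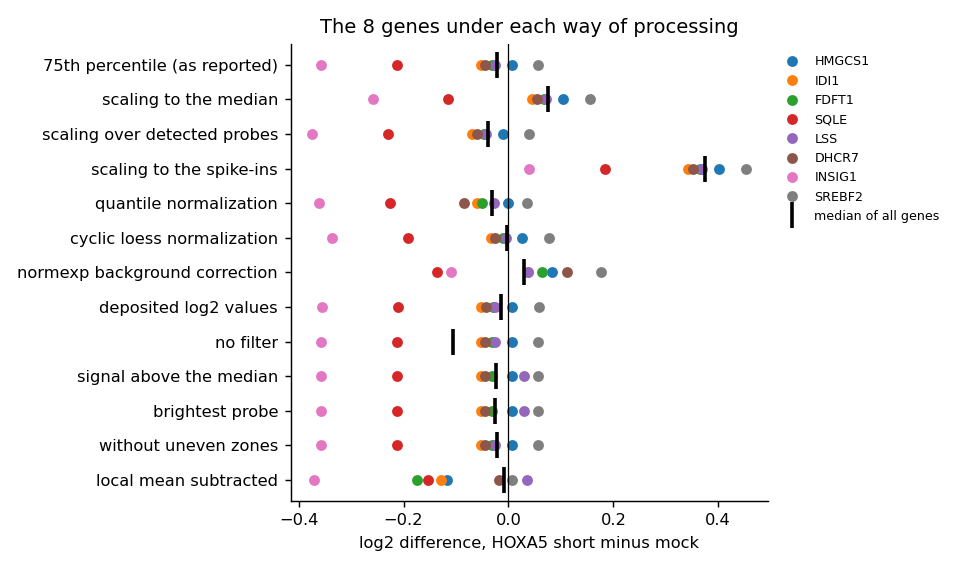
Log2 difference, HOXA5 short minus mock, of each of the 8 genes (coloured points) under the 75th percentile scaling and 12 other ways of processing, with the median of all genes as a black bar. INSIG1 and SQLE lie left of the bar in every row, INSIG1 lowest except under normexp, where it is -0.11 and SQLE -0.14, and the spike-in scaling carries all points to the right.

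The rest of the synthesis pathway was taken from lists by known role. Of the mevalonate arm 8 of 9 genes could be compared: 2 were higher and 6 lower, with a median of -0.04 and 0 beyond the spot spread. Among all genes 54.5% lay below 0 and 75.8% lay within the spot spread. FDPS, farnesyl pyrophosphate synthase, was the highest of that arm at 0.02. GGPS1, which makes geranylgeranyl pyrophosphate, was well above background on the mock array only (11.0 against 8.33), from a probe close to background. As read, its level with HOXA5 short RNA was 1.63-fold lower. That difference of -0.71 had a scanner error of 0.43.

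From squalene to cholesterol 13 of 14 genes could be compared, and SC5D was not well above background on either array. Of the 13, 3 were higher and 10 lower, with a median of -0.06. Without the 4 genes already described the median of the other 9 was -0.16. ERG28, a scaffold for the demethylating enzymes, had the lowest value, -0.28 (264 ± 26.5 and 270 ± 27.0 in signal). It was the only one beyond the spot spread, though 10.9% of all genes had a lower difference. Its neighbouring spots were also low on average, at -0.17. HSD17B7 was highest at 0.17, but its 3 probes disagreed, at -0.12, 0.05 and 0.59, and the gene has a closely similar pseudogene, so its value is uncertain. Of all 21 synthesis genes compared, 16 lay below 0 (76.2%), with a median of -0.04. The 15 that are not among the 8 genes had 11 below 0 (73.3%) and a median of -0.06. These shares stand above the 54.5% of all genes, but nearly every value is smaller than the spot spread. Scaling to the array medians or the spike-ins moved all genes alike, and the medians of both arms, then above 0, stayed below the median of all genes (0.05 and 0.04 beside 0.08, and 0.35 and 0.34 beside 0.37). Under normexp the mevalonate arm was above it and the later steps below (0.08 and 0.0080 beside 0.03).

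**Figure D4:**
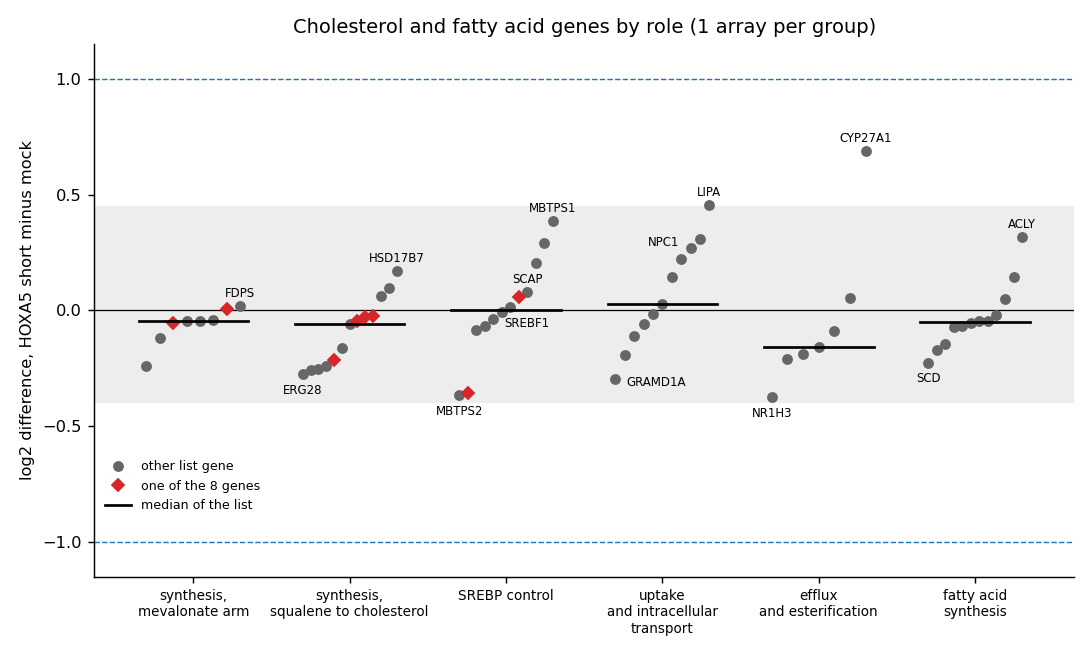
Log2 difference, HOXA5 short minus mock, of each gene compared in 6 lists of cholesterol and fatty acid genes, with the median of each list as a black line and the 5th to 95th percentile of all genes in grey. The 8 genes are the red diamonds, most list genes lie between -0.4 and 0.4, and none reaches the dashed lines of 2-fold.

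The machinery that controls SREBP was measured in full, with 12 of 12 genes compared, 6 higher and 6 lower, and a median of 0.0019 that was negative in 3 of 12 alternatives. SCAP, the escort, read 352 ± 35.2 and 459 ± 45.9, a difference of 0.08. SREBF1, the relative of SREBF2 that favours fatty acid genes, had a mean of -0.04 over probes at -0.11 and 0.03. The proteases lay at the ends of the list. MBTPS1, which encodes S1P, was highest at 0.38, and both of its probes were above the spot spread, at 0.28 and 0.48. Of all genes, 93.6% had a lower difference than MBTPS1. MBTPS2, which encodes S2P, was lowest at -0.37 over 10 spots near background whose own standard deviation was 0.54. INSIG2, the paralogue of INSIG1, was looked up after the value of INSIG1 had been seen: its probes gave 0.01 and 0.57, so no single value can be given for it.

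For uptake and intracellular transport 11 of 13 genes were compared, with 6 higher, 5 lower and a median of 0.03 (-0.02 without the filter on dim probes). The median of all genes was -0.02 with that filter and -0.11 without it, so the list stayed above all genes. LRP1 and VLDLR were not well above background. LIPA, the lysosomal lipase that frees cholesterol from LDL, was the highest of the list: 312 ± 31.2 in mock cells and 527 ± 52.8 in HOXA5 short cells. Its difference of 0.46 exceeded both the scanner error of 0.20 and the spot spread, and 95.1% of all genes had a lower difference. GRAMD1A, a carrier of cholesterol from the plasma membrane, was lowest at -0.29, from signals of 20.8 ± 2.79 and 20.9 ± 2.88.

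Repeated spots gave a closer reading for 5 genes of these lists, singled out because their probe was printed in 10 spots on each array. Copies of a probe share 1 labelled RNA and are not replicates of a condition. TM7SF2, a sterol reductase that acts after lanosterol, ran from 107 to 127 in mock cells (median 116.3) and from 116.2 to 135 in HOXA5 short cells (median 122). After scaling 10 of 10 copies were lower with HOXA5 short RNA, with a mean of -0.24 ± 0.09 (SD over spots). NPC1, which exports cholesterol from lysosomes, ran from 39.0 to 49.99 (median 45.3) and from 57.4 to 72.8 (median 68.3), without overlap before scaling on the brighter HOXA5 short array, although the scaled ranges overlap. Spot by spot, all 10 of its copies were higher, with a mean of 0.27 ± 0.16. The copies of HSD17B7 were lower in 9 of 10 (-0.12 ± 0.13), those of MSMO1, a sterol demethylase, higher in 7 of 9 unflagged copies (0.09 ± 0.16), and those of MBTPS2 lower in 7 of 10. For TM7SF2 and NPC1 the sign was thus the same in every copy, at sizes of 1.18-fold lower and 1.21-fold higher that single spots could not resolve. The sign for TM7SF2 is relative to the other genes, since before scaling its median signal was higher with HOXA5 short RNA.

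**Figure D5:**
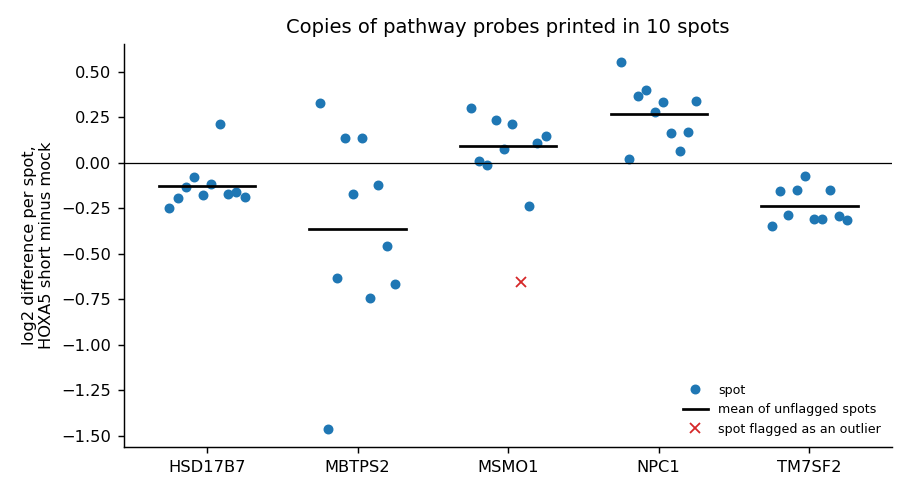
Log2 difference, HOXA5 short minus mock, of each spot of the 5 pathway probes printed in 10 spots, with the mean of unflagged spots as a line and a flagged outlier as a cross. All copies of NPC1 lie above 0 and all copies of TM7SF2 below it, while those of MBTPS2 spread from -1.46 to 0.33.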

How the data were processed

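Per the file headers, spots were quantified with Agilent Feature Extraction 11.5.1.1. The deposited scanner files give background-corrected spot intensity on a linear scale. A log2 table deposited by the authors was made with GeneSpring 14.9 after low and flagged values were filtered out, and served as an alternative. Each array held 62976 spots, 58717 of them not controls.

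Spots of a probe were averaged on the log2 scale without outlier-flagged spots, and each array's 75th percentile was subtracted. A probe was compared when well above background on both arrays (17940 probes), and a gene is the mean of its compared probes. Accessions were matched to RefSeq gene records (GRCh38.p14), which named 30001 probes. The arrays were annotated on hg19, so no gene coordinates are given. A probe well above background on 1 array was set against the other array's lowest such signal or its own signal there, whichever was higher. For GGPS1 this was its own signal, so its fold is an estimate and no bound.

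The genes and lists were chosen with earlier results of these data known. Named are the 8 genes, HOXA5, SREBF1, SCAP, list genes at least 1.5-fold different or detected on 1 array, and each list's highest and lowest gene. Some genes that this rule names are not reported here. INSIG2, the genes with 10-spot probes and those named as not above background were added after their values were seen.

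Alternatives were other scalings, quantile and cyclic loess normalization, normexp (offset 50), the deposited log2 values, other filters, the brightest probe, and corrections for position on the grid. Python 3.11.15, numpy 2.4.6, pandas 2.3.3, R 4.3.3 and limma 3.58.1 were used, and the steps were tested on simulated data.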

Additional observations from a re-analysis of the deposited data

How the results depend on the processing

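Of 205 values recomputed under the alternatives, 188 differed from those reported by less than the spot spread of 0.26 (counts were unchanged) and 17 by more. Many of the 188 had little or no room to differ, so their number is no measure of robustness. Other filters leave a gene read by 1 spot as it was, and the deposited values were shifted by a median of only 0.0014. A count of 0 at 3-fold follows from 0 at 2-fold. Signs changed among the 17: with scaling to the spike-ins the median of the 8 genes went from -0.04 to 0.36. The larger shifts came from scaling to the spike-ins, which adds the same amount to every gene, and from normexp for HOXA5 (1.91). With the spike-ins the median was 0.36 for the 8 genes, 0.35 for the mevalonate arm, 0.34 from squalene to cholesterol, 0.40 for SREBP control, 0.42 for uptake and transport, 0.24 for efflux and esterification and 0.35 for fatty acid synthesis. In the other 11 alternatives the median of the 8 genes ran from -0.12 (local mean subtracted) to 0.06 (scaling to the median) and was negative in 9. The count of the 8 genes past 2-fold was 0 in every setting, and also at 1.5-fold and 3-fold. No paired analysis was possible because each group has 1 array. Differences under about 0.2 are below what 1 spot per array can measure, and nothing here tells a difference between conditions from one between cultures.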

Other observations

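Genes that remove or store cholesterol were measured less well than those that make it. Of 11 genes for efflux and esterification, 7 were compared, 2 higher and 5 lower, where 54.5% of all genes were lower. Their median was -0.16 beside -0.02 for all genes (0.24 beside 0.37 with spike-in scaling). ABCA1 and ABCG1, the sterol exporters, did not stand well above background in either sample, and neither did SOAT2 and CH25H. NR1H3, which encodes the oxysterol receptor LXR alpha, was lowest: 476 ± 47.7 in mock cells and 454 ± 45.5 in HOXA5 short cells, a difference of -0.37. CYP27A1, a mitochondrial sterol hydroxylase, read 11.3 ± 2.06 and 22.5 ± 2.92. Its difference of 0.69, a 1.61-fold higher level, had a scanner error of 0.32, and 98.2% of all genes had a lower difference. Among list genes compared on both arrays it alone was past 1.5-fold, where the share of all genes was 2.78% higher and 1.6% lower.

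All 12 genes of fatty acid synthesis were compared, 3 higher and 9 lower (54.5% of all genes were lower), with a median of -0.05. Scaling to the array medians or the spike-ins, which moves all genes alike, gave 0.05 and 0.35, below the medians of all genes there (0.08 and 0.37), and normexp gave 0.04, above that of all genes (0.03). ACLY, which supplies cytosolic acetyl-CoA to both fatty acids and cholesterol, was highest: 372 ± 37.3 and 572 ± 57.2. Its difference of 0.32 was above that of 91.2% of all genes and exceeded the spot spread. SCD, the stearoyl-CoA desaturase, was lowest at -0.23, within it.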
